A study of Saccharomyces cerevisiae with 54 samples.

Results

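The nuclear genes of the yeast respiratory chain and ATP synthase were followed through meiosis by ribosome profiling and RNA sequencing. The members are 36 of the 6679 genes measured, listed by systematic name, and were chosen with earlier results of these data known. All 36 were found in every table and passed the filter on low values in every fit. Succinate dehydrogenase has 4 of them, SDH1 (YKL148C), SDH2 (YLL041C), SDH3 (YKL141W) and SDH4 (YDR178W). The bc1 complex has 9, COR1 (YBL045C), QCR2 (YPR191W), QCR6 (YFR033C), QCR7 (YDR529C), QCR8 (YJL166W), QCR9 (YGR183C), QCR10 (YHR001W-A), CYT1 (YOR065W) and RIP1 (YEL024W). Cytochrome c has 2, CYC1 (YJR048W) and CYC7 (YEL039C). Cytochrome oxidase has 9, COX4 (YGL187C), COX5A (YNL052W), COX5B (YIL111W), COX6 (YHR051W), COX7 (YMR256C), COX8 (YLR395C), COX9 (YDL067C), COX12 (YLR038C) and COX13 (YGL191W). ATP synthase has 11, ATP1 (YBL099W), ATP2 (YJR121W), ATP3 (YBR039W), ATP4 (YPL078C), ATP5 (YDR298C), ATP7 (YKL016C), ATP14 (YLR295C), ATP15 (YPL271W), ATP16 (YDL004W), ATP17 (YDR377W) and ATP20 (YPR020W), and the last member is NDI1 (YML120C). All cells were of the SK1 background of budding yeast. The course consists of cells growing exponentially in the glucose medium YEPD at an optical density of 0.6, then cells in sporulation medium at 0, 1.5, 3, 4.5, 6, 8 and 10 h, then spores, and a non-meiotic MATa/a strain held in sporulation medium for 4.5 h. Each of these states had 1 footprint, 1 mRNA and 1 total RNA library. A parallel set held 2 footprint libraries each at 1.5, 3 and 6 h, 1 each at 0 h and from growing cells, 2 mRNA libraries each at 1.5 and 6 h, and 1 at 3 h. Strain brun95 gave 5 mRNA libraries with induction of Ndt80 (5.75, 6, 6.5, 7 and 7.75 h) and 4 without it (4, 5.5, 6 and 7.75 h). The labels do not name the inducing agent or what sets brun95 apart from the other strains. Nor do they say whether replicates came from separate cultures. The p-values below therefore reflect the spread among these libraries alone, and that spread may be technical.

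The respiratory chain of yeast mitochondria passes electrons from succinate, through succinate dehydrogenase, or from NADH, through the single-subunit dehydrogenase Ndi1, to the bc1 complex, then to cytochrome c and to cytochrome oxidase, which reduces oxygen. ATP synthase uses the resulting proton gradient. Glucose represses many of these genes in growing yeast, and sporulation takes place on a carbon source that has to be respired. Cytochrome c and a subunit of cytochrome oxidase each have alternative forms: CYC1 and COX5A encode the forms usual in oxygen, and CYC7 and COX5B the forms known for a larger share when oxygen is low.

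In units of 1000000 reads, libraries held 2.28 to 17 for course footprints, 8.70 to 24.7 for course mRNA, 1.03 to 17.7 for the parallel set and 2.62 to 8.02 for the induction series. Values are RPKM, reads per gene length and library total as the authors computed them, so levels may be compared between genes. The library labelled MATa/a stood apart. Across 6012 genes, which are not independent, its log2 mRNA values correlated with those of growing cells at r = 0.97 and with the 4.5 h sporulating cells at r = 0.54, whereas its footprints, across 5631 genes, correlated with growing cells at r = 0.66 and with the 4.5 h cells at r = 0.76, and most with spores, at r = 0.90. Its footprint and mRNA values are therefore given apart from the course and enter no test. The course mRNA library of 0 h was on another scale, its median gene lying 0.74 above growing cells on the log2 scale, and course changes are given relative to the median of all genes.

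The 36 genes took their greatest share of footprint reads at 0 h and their smallest at 6 h. In the course they held 1.34% of footprint reads in growing cells, 2.56% at 0 h, 2.02% at 1.5 h, 1.84% at 3 h, 1.28% at 4.5 h, 0.818% at 6 h, 0.962% at 8 h, 0.907% at 10 h and 0.949% in spores. The same genes held 1.12% of mRNA reads in growing cells, 2.27% at 0 h, 1.53% at 1.5 h, 1.51% at 3 h, 0.978% at 4.5 h, 0.647% at 6 h, 0.610% at 8 h, 0.806% at 10 h and 0.820% in spores. Both assays thus peaked at 0 h and were below growing cells from 4.5 h on. The parallel footprint libraries gave 1.40% in growing cells, 2.90% at 0 h, 1.78 and 2.00% at 1.5 h, 1.86 and 1.84% at 3 h and 0.868 and 0.782% at 6 h. No 6 h library overlapped the earlier ones. The 95% Wilson interval of each share was at most 0.032 percentage points to either side. It covers counting error only, not error in the gene lengths used to recover reads. In such bulk samples, fewer cells of a kind and less RNA per cell cannot be told apart.

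**Figure D1:**
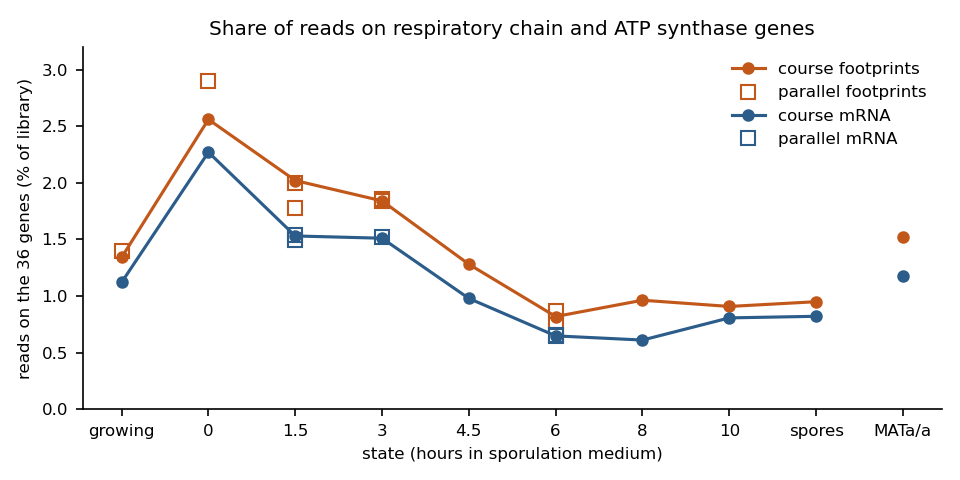
Share of a library's reads on the 36 genes, in percent, by state of the culture, with 1 point per library, footprints in orange and mRNA in blue, the course as filled circles and the parallel set as open squares. The share is highest at 0 h (2.56% of course footprints) and lowest at 6 h for course footprints (0.818%).

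The complexes did not move together over the course. In footprints the median of succinate dehydrogenase stood above growing cells in every later state. That of the bc1 complex lay below them in every later state, by little at 0 h and 1.5 h. The ATP synthase median was above them at 0 h and below them from 1.5 h on, by little at 1.5 h and 3 h. Relative to all genes, the median footprint change of the 4 succinate dehydrogenase genes against growing cells was (in log2) 1.97 at 0 h, 2.23 at 1.5 h, 2.10 at 3 h, 1.64 at 4.5 h, 1.19 at 6 h, 1.71 at 8 h, 1.45 at 10 h and 1.21 in spores. All 4 were above the all-gene median in each of these states, in footprints and in mRNA. The 11 ATP synthase genes had medians of 1.09 at 0 h, -0.05 at 1.5 h, -0.14 at 3 h, -0.68 at 4.5 h, -1.09 at 6 h, -0.53 at 8 h, -0.87 at 10 h and -0.81 in spores. All 11 were above the all-gene median at 0 h. All 11 were below it in spores and at 4.5, 6 and 10 h, and 10 of 11 at 8 h. The 9 bc1 genes had medians of -0.11 at 0 h, -0.15 at 1.5 h, -0.49 at 3 h, -0.69 at 4.5 h, -1.14 at 6 h, -0.75 at 8 h, -0.96 at 10 h and -0.96 in spores. Cytochrome oxidase was the most divided complex at 0 h, its 9 genes running between -0.49 and 4.22 around a median of 0.91. With 1 library per state, these course values carry no test.

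**Figure D2:**
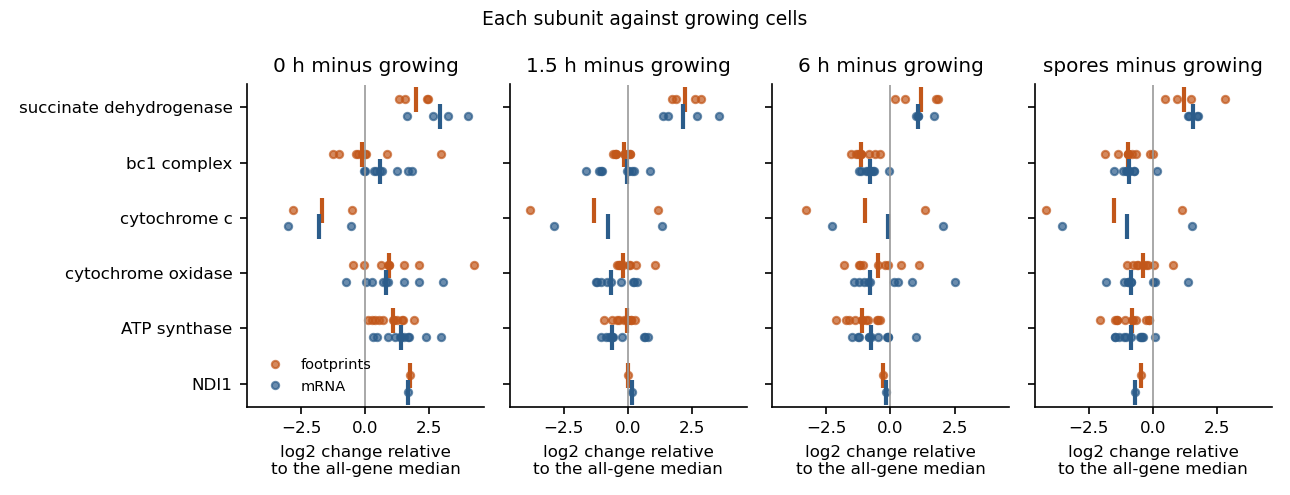
Log2 change of each gene at 0 h, 1.5 h and 6 h and in spores against growing cells in the course, relative to the median of all genes (x axis), by complex (rows), with footprints in orange and mRNA in blue; points are genes and upright bars the median of a complex. The succinate dehydrogenase median lies at or above 1.19 in footprints of these states, and the ATP synthase median lies at -1.09 at 6 h.

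Subunits of cytochrome oxidase, the bc1 complex and ATP synthase were most unequal at 0 h in the course. Leaving out the minor form COX5B, the gene of cytochrome oxidase with the most footprints (RPKM) over that with the fewest was 25.9-fold at 0 h, against 2.64-fold in growing cells and 2.51-fold at 1.5 h. For the bc1 complex this range was 17.6-fold at 0 h, against 3.93-fold in growing cells and 2.85-fold at 1.5 h, and for ATP synthase it was 12.8-fold at 0 h, against 4.26-fold in growing cells and 3.31-fold at 1.5 h. The spread within each of the 3 complexes was thus wide at 0 h and narrow again by 1.5 h. At 6 h the footprint range was 7.86-fold for cytochrome oxidase and 7.02-fold for the bc1 complex, wider than at 1.5 h, and 2.27-fold for ATP synthase. In mRNA at 0 h the ranges were 11.3-fold for cytochrome oxidase, 8.07-fold for the bc1 complex and 7.84-fold for ATP synthase. The bc1 mRNA range was nearly as wide at 8 h (7.76-fold) and in spores (7.31-fold). Succinate dehydrogenase differed from them, its footprint range being 2.51-fold in growing cells, 3.87-fold at 0 h, 2.49-fold at 1.5 h, 3.17-fold at 6 h, 4.31-fold at 8 h, 4.19-fold at 10 h and widest, 6.90-fold, in spores. Its mRNA range was 2.70-fold at 0 h, against 4.58-fold in growing cells.

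The genes behind that spread could be tested on entry into sporulation medium, as footprints at 0 h against growing cells in the parallel set. Of the 36 genes, 15 were higher and 3 lower at 0 h (limma on log2(RPKM + 1), called at a p under 0.05 after Benjamini-Hochberg adjustment across the genome). Of all genes tested, 24.7% were higher and 39.4% lower, and the median gene changed by -0.42. The higher genes were the 4 of succinate dehydrogenase, QCR8 and QCR10, CYC7, COX7, COX9 and COX13, ATP1, ATP2, ATP3 and ATP7, and NDI1. The lower ones were CYC1, CYT1 and COX6. The call of CYC7 was not repeated in the course, where it had 159 RPKM at 0 h and 321 RPKM in growing cells. Each of these 2 states had 1 library, which the fit takes to vary like the other groups. With quantile normalization 20 were higher and 1 lower, against 24.3 and 29% of all genes.

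COX13, a peripheral subunit of cytochrome oxidase, had 26363 RPKM at 0 h and 3513 RPKM in growing cells. Its log2 change was 2.91 ± 0.29 (SE, limma adjusted p = 2.8e-05), and the course libraries gave 35685 RPKM at 0 h and 2677 RPKM in growing cells. The small bc1 subunit QCR10 had 15821 RPKM at 0 h and 2606 RPKM in growing cells, a log2 change of 2.60 ± 0.31 (limma adjusted p = 7.84e-05). Both genes stood well above growing cells in both sets of libraries. SDH3, a membrane anchor of succinate dehydrogenase, had 5321 RPKM at 0 h and 905 RPKM in growing cells (log2 change 2.55 ± 0.34, limma adjusted p = 0.000162).

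The largest fall was that of CYC1, the main cytochrome c of growth in oxygen, with 1320 RPKM at 0 h and 11213 RPKM in growing cells. Its log2 change was -3.09 ± 0.35 (limma adjusted p = 5.91e-05). The course libraries gave 998 RPKM at 0 h and 9839 RPKM in growing cells, so that CYC1 had the most footprints per length of the 36 genes in growing cells and lost that place at 0 h. CYT1, the cytochrome c1 of the bc1 complex, had 956 RPKM at 0 h and 1845 RPKM in growing cells (log2 change -0.95 ± 0.32, limma adjusted p = 0.0257). COX6, a subunit of cytochrome oxidase, had 1725 RPKM at 0 h and 3189 RPKM in growing cells (log2 change -0.89 ± 0.25, limma adjusted p = 0.0123). Neither CYT1 nor COX6 passed after each library was centred on its median, with log2 changes of -0.75 and -0.68, or with quantile normalization.

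**Figure D3:**
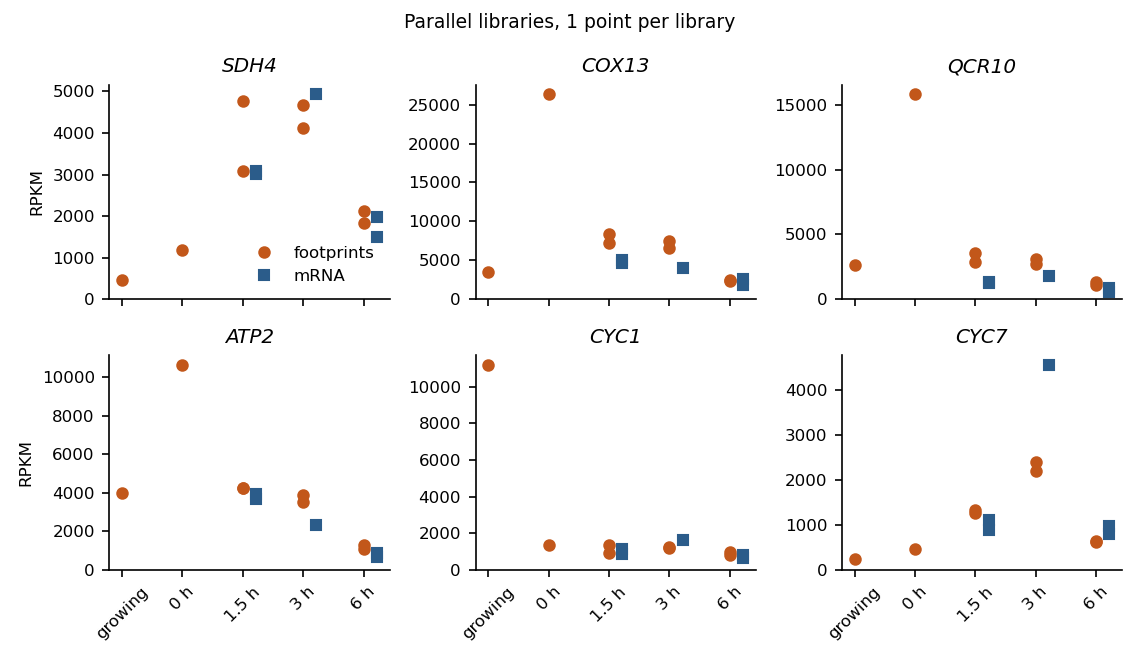
RPKM of 6 genes in the parallel set, 1 point per library, circles for footprints and squares for mRNA. COX13 and QCR10 stand apart at 0 h (26363 and 15821 RPKM in footprints), CYC1 in growing cells (11213 RPKM) and CYC7 at 3 h (4572 RPKM in mRNA).

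At 1.5 h against 0 h COX13, QCR10 and 5 ATP synthase genes fell, while SDH2, SDH4 and CYC7 rose. Of the 36 genes, 7 were higher and 12 lower, where 48.6% of all genes were higher and 8.59% lower and the median gene changed by 0.75. With each library centred on its median, 2 were higher and 22 lower, against 23.9 and 25.8% of all genes. The 12 lower genes were 5 of ATP synthase, 3 of cytochrome oxidase, 2 of the bc1 complex, 1 of succinate dehydrogenase, and NDI1, the internal NADH dehydrogenase. QCR10 had 3554 and 2881 RPKM at 1.5 h and 15821 RPKM at 0 h (log2 change -2.31 ± 0.27, limma adjusted p = 8.71e-05). COX13 had 8365 and 7149 RPKM at 1.5 h and 26363 RPKM at 0 h (log2 change -1.77 ± 0.25, limma adjusted p = 0.000295). ATP2, a catalytic subunit of ATP synthase, had 4256 and 4246 RPKM at 1.5 h and 10665 RPKM at 0 h (log2 change -1.33 ± 0.23, limma adjusted p = 0.000937). For all 3 genes both 1.5 h libraries lay far under the 0 h library.

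SDH4, the other membrane anchor of succinate dehydrogenase, had 3077 and 4767 RPKM at 1.5 h and 1176 RPKM at 0 h (log2 change 1.70 ± 0.28, limma adjusted p = 0.00081). CYC7 had 1320 and 1272 RPKM at 1.5 h and 451 RPKM at 0 h (log2 change 1.52 ± 0.21, limma adjusted p = 0.00023). SDH2, the iron-sulfur subunit, had 2818 and 4195 RPKM at 1.5 h and 1432 RPKM at 0 h (log2 change 1.26 ± 0.27, limma adjusted p = 0.00352). Both 1.5 h libraries exceeded the 0 h library for each of these, but the centred change of SDH2 was 0.40 and did not pass.

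Set against growing cells directly, footprints at 1.5 h were higher for 8 of the 36 genes and lower for 1, with 42.1% of all genes higher, 21.2% lower and a median change of 0.46. This comparison shares its growing and its 1.5 h libraries with the comparisons above. The higher genes were the 4 of succinate dehydrogenase, CYC7, COX13, COX9 and RIP1, the iron-sulfur subunit of the bc1 complex, and the lower one was CYC1. With each library centred on its median, 5 were higher and 13 lower, against 27.1 and 34.3% of all genes. With quantile normalization 18 were higher and 1 lower, against 25.1 and 28.3%. The 4 succinate dehydrogenase genes and CYC7 were higher and CYC1 lower under all 3 scalings. SDH4 had 3077 and 4767 RPKM at 1.5 h and 468 RPKM in growing cells (log2 change 3.03 ± 0.28, limma adjusted p = 1.91e-05). SDH2 had 2818 and 4195 RPKM at 1.5 h and 527 RPKM in growing cells (log2 change 2.70 ± 0.27, limma adjusted p = 3.01e-05). SDH1, the flavoprotein subunit, and SDH3 changed by 2.39 and 1.60. CYC7 had 1320 and 1272 RPKM at 1.5 h and 230 RPKM in growing cells (log2 change 2.49 ± 0.21, limma adjusted p = 8.67e-06). CYC1 had 1369 and 915 RPKM at 1.5 h and 11213 RPKM in growing cells (log2 change -3.32 ± 0.30, limma adjusted p = 1.46e-05). None of the 11 ATP synthase genes passed in either direction, their changes lying between -0.46 and 0.22.

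From 1.5 h to 3 h CYC7 alone of the 36 genes passed the test, in both assays. Its footprints were 2192 and 2411 RPKM at 3 h and 1320 and 1272 RPKM at 1.5 h (log2 change 0.83 ± 0.17, limma adjusted p = 0.0225). Its mRNA was 4572 RPKM in the 3 h library and 878 and 1103 RPKM at 1.5 h (log2 change 2.21 ± 0.20, limma adjusted p = 0.00162). The groups did not overlap in either assay. The footprint call was lost without 1.5 h replicate 1 or either 3 h replicate, with changes of 0.85, 0.90 and 0.76 and limma adjusted p of 0.0839 to 0.159. Of all genes tested, 3.97% were higher and 3.84% lower in footprints (median -0.07), and 3.03% were higher and 0.804% lower in mRNA (median 0.11). At an unadjusted p under 0.05, 5 members passed in footprints and 11 in mRNA, against 1584 and 1222 of all 5967 genes. With quantile normalization limma called 0 members in footprints (3.62% of all genes), the change of CYC7 being 0.68. In mRNA it called 1 higher and 4 lower, against 5.09 and 4.96% of all genes.

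Between 3 h and 6 h nearly all members fell, in footprints and in mRNA. Footprints of 33 of the 36 genes were lower at 6 h and none was higher, where 40.6% of all genes were lower, 15.6% higher and the median gene changed by -0.45. The median member changed by -1.23. All 4 succinate dehydrogenase genes, all 9 bc1 genes, all 11 ATP synthase genes, 7 of the 9 cytochrome oxidase genes, CYC7 and NDI1 were lower. The 3 genes that did not pass were COX9, at -0.16, COX5B, at -0.29, and CYC1, at -0.47. With each library centred on its median 31 were lower and 0 higher, against 28.5 and 19% of all genes.

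CYC7 footprints were 637 and 611 RPKM at 6 h and 2192 and 2411 RPKM at 3 h (log2 change -1.88 ± 0.17, limma adjusted p = 3.17e-05). Those of COX12, a subunit of cytochrome oxidase, were 853 and 720 RPKM at 6 h and 2443 and 2851 RPKM at 3 h (log2 change -1.75 ± 0.17, limma adjusted p = 5.65e-05). ATP2 footprints were 1287 and 1083 RPKM at 6 h and 3889 and 3542 RPKM at 3 h (log2 change -1.65 ± 0.18, limma adjusted p = 0.000121). In each of these the 6 h libraries lay far below the 3 h libraries with no overlap. COX9, a small subunit of the same oxidase as COX12, behaved otherwise, with 8215 and 8044 RPKM at 6 h and 8333 and 9849 RPKM at 3 h.

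In mRNA, 33 of the 36 genes were lower at 6 h than at 3 h and none was higher, against 49.1% lower and 9.47% higher of all genes. The median member changed by -1.03 and the median gene by -0.81. With each library centred on its median, 13.8% of all genes were lower and 14.7% higher, and the members called were 12 lower ones, namely ATP1, ATP2, ATP5, ATP20, CYT1, QCR2, QCR6, QCR7, CYC7, COX12, SDH1 and SDH4. CYC7 mRNA was 798 and 971 RPKM at 6 h and 4572 RPKM at 3 h (log2 change -2.38 ± 0.20, limma adjusted p = 5.93e-05). QCR6, the acidic hinge subunit of the bc1 complex, had 3448 and 2539 RPKM at 6 h and 12817 RPKM at 3 h (log2 change -2.11 ± 0.29, limma adjusted p = 0.000659). CYT1 had 698 and 444 RPKM at 6 h and 2227 RPKM at 3 h (log2 change -2.0 ± 0.27, limma adjusted p = 0.000659). For these 3 genes both 6 h libraries lay under the 3 h library. COX5B, at 0.57, COX7, at -0.45, and QCR9, at -0.51, did not pass. The 3 h mRNA group is 1 library and enters both mRNA comparisons.

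No member passed a test of translation efficiency, the footprint change less the mRNA change. For 3 h against 1.5 h limma called 0 of the 36 genes and 0% of all genes, and at an unadjusted p under 0.05 it gave 5 members and 523 of all 5967 genes. The member with the smallest p was CYC7, whose mRNA changed by more than its footprints, at -1.39 (limma adjusted p = 0.263). For 6 h against 3 h limma called 0 of the 36 genes and 1.32% of all genes, and at an unadjusted p under 0.05 it gave 1 member, QCR6 at 1.18 (adjusted p = 0.133), and 1182 of all genes. The members' median was -0.10 and that of all genes 0.33, so 29 of the 36 lay below the all-gene median.

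The alternative forms of the cytochrome oxidase subunit lay closer together from 3 h to 10 h than in growing cells, with COX5B below COX5A in every state. COX5A footprints were 4837 RPKM in growing cells, 5265 at 0 h, 5362 at 1.5 h, 4762 at 3 h, 4194 at 4.5 h, 3794 at 6 h, 3954 at 8 h, 2758 at 10 h and 4731 in spores. COX5B footprints were 77.0 RPKM in growing cells, 104 at 0 h, 112 at 1.5 h, 194 at 3 h, 169 at 4.5 h, 181 at 6 h, 390 at 8 h, 214 at 10 h and 65.6 in spores. The ratio of COX5A over COX5B in footprints thereby lay at 62.9 in growing cells, at its lowest, 10.1, at 8 h, and at 72.1 in spores.

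In mRNA COX5A gave 4041 RPKM in growing cells, 8045 at 0 h, 2559 at 1.5 h, 2403 at 3 h, 2281 at 4.5 h, 1651 at 6 h, 1617 at 8 h, 1529 at 10 h and 2136 in spores. COX5B mRNA was 155 RPKM in growing cells, 452 at 0 h, 202 at 1.5 h, 449 at 3 h, 735 at 4.5 h, 675 at 6 h, 1041 at 8 h, 773 at 10 h and 411 in spores. The mRNA ratio was 26.0 in growing cells, 17.8 at 0 h, 12.7 at 1.5 h, 5.35 at 3 h, 3.10 at 4.5 h, 2.44 at 6 h, 1.55 at 8 h, 1.98 at 10 h and 5.19 in spores. The forms thus came close to each other in mRNA and stayed far apart in footprints. The log2 ratio of footprints over mRNA was taken relative to the median ratio of all genes in each state. For COX5B this relative ratio was -0.04 in growing cells, -0.06 at 0 h, -0.35 at 1.5 h, -0.47 at 3 h, -1.58 at 4.5 h, -1.5 at 6 h, -1.05 at 8 h, -1.20 at 10 h and -1.75 in spores. On the same relative scale the median of the 36 genes ran between 0.58 and 1.17 over these states, and COX5A between 1.22 and 2.02. These ratios are from 1 library per assay and state and carry no test.

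In the parallel set the footprint ratio of COX5A over COX5B was 57.8 in growing cells, 62.3 at 0 h, 90.9 and 37.0 at 1.5 h, 23.6 and 23.5 at 3 h, and 20.4 and 22.2 at 6 h. It was under that of growing cells in every 3 h and 6 h library, but not at 0 h or in both 1.5 h libraries. COX5A footprints were 4902 RPKM in growing cells, 4898 at 0 h, 4311 and 4965 at 1.5 h, 4345 and 4846 at 3 h, and 3586 and 3216 at 6 h. They were lower at 6 h than at 3 h with no overlap (log2 change -0.43, limma adjusted p = 0.0395), close to the change of the median gene, -0.45, and the call was lost with libraries centred (-0.19). COX5B footprints were 84.8 RPKM in growing cells, 78.6 at 0 h, 47.4 and 134 at 1.5 h, 184 and 206 at 3 h, and 176 and 145 at 6 h. Its value at 0 h rests on about 13.4 recovered reads and that of the lower 1.5 h library on about 34.2. These counts are not whole and so approximate. The difference of COX5B footprints between 3 h and 1.5 h did not pass (log2 change 1.28 ± 0.38, limma adjusted p = 0.0742). COX5A mRNA was 2817 and 2665 RPKM at 1.5 h, 2100 at 3 h, and 1389 and 1519 at 6 h, and COX5B mRNA was 175 and 180 RPKM at 1.5 h, 439 at 3 h, and 677 and 626 at 6 h. The mRNA ratio was 16.1 and 14.8 at 1.5 h, 4.78 at 3 h, and 2.05 and 2.43 at 6 h, with no overlap between hours. COX5A mRNA was lower at 6 h than at 3 h as deposited (log2 change -0.53, limma adjusted p = 0.0384), by less than the median gene, -0.81, and with libraries centred the change was 0.07 and not called, while the changes of COX5B, at 1.30 and then 0.57, did not pass.

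**Figure D4:**
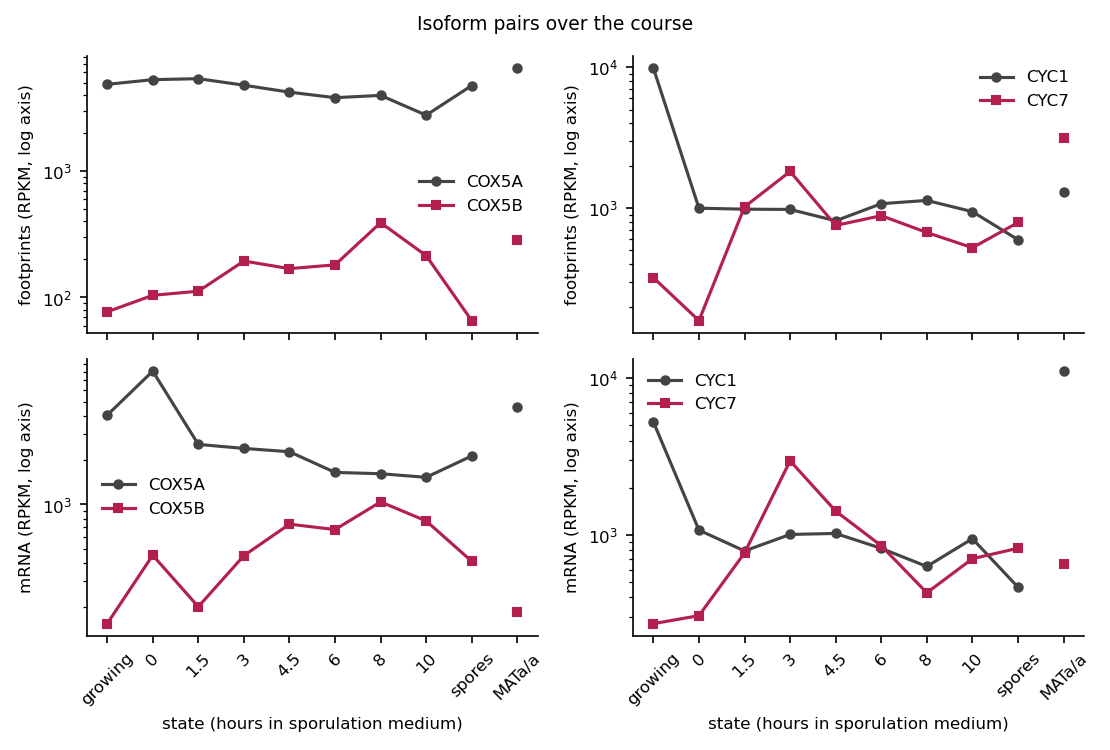
RPKM on a log axis of COX5A and COX5B and of CYC1 and CYC7 by state of the course, in footprints and in mRNA, 1 point per library. COX5B stays under COX5A in every state (mRNA ratio 1.55 at 8 h), whereas CYC1 and CYC7 cross, with a footprint ratio of 30.6 in growing cells and 0.538 at 3 h.

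The cytochrome c forms changed places. CYC1 footprints were 9839 RPKM in growing cells, 998 at 0 h, 982 at 1.5 h, 978 at 3 h, 812 at 4.5 h, 1074 at 6 h, 1133 at 8 h, 943 at 10 h and 597 in spores. CYC7 footprints were 321 RPKM in growing cells, 159 at 0 h, 1020 at 1.5 h, 1819 at 3 h, 753 at 4.5 h, 883 at 6 h, 671 at 8 h, 523 at 10 h and 790 in spores. CYC1 was thus low from 0 h on, and CYC7 peaked at 3 h. The ratio of CYC1 over CYC7 in footprints was 30.6 in growing cells, 6.27 at 0 h, 0.963 at 1.5 h, 0.538 at 3 h, 1.08 at 4.5 h, 1.22 at 6 h, 1.69 at 8 h, 1.80 at 10 h and 0.755 in spores. In the parallel set CYC7 footprints were 451 RPKM at 0 h and 230 RPKM in growing cells, the opposite direction to the course.

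CYC1 mRNA was 5263 RPKM in growing cells, 1074 at 0 h, 791 at 1.5 h, 1008 at 3 h, 1023 at 4.5 h, 822 at 6 h, 630 at 8 h, 947 at 10 h and 465 in spores. CYC7 mRNA was 272 RPKM in growing cells, 306 at 0 h, 768 at 1.5 h, 2970 at 3 h, 1421 at 4.5 h, 854 at 6 h, 428 at 8 h, 706 at 10 h and 823 in spores. The mRNA ratio was thereby 19.4 in growing cells and lowest, 0.340, at 3 h. The 0 h mRNA values are again on the other scale, and CYC7 had 238 reads in growing cells and 90 at 0 h. In the parallel footprints CYC1 was 11213 RPKM in growing cells, 1320 at 0 h, 1369 and 915 at 1.5 h, 1159 and 1225 at 3 h, and 946 and 780 at 6 h. There the ratio was 48.6 in growing cells, 2.92 at 0 h, 1.04 and 0.720 at 1.5 h, 0.529 and 0.508 at 3 h, and 1.49 and 1.28 at 6 h. The 3 h libraries were the lowest and did not overlap those of 1.5 h or 6 h. In the parallel mRNA CYC1 was 832 and 1106 RPKM at 1.5 h, 1615 at 3 h, and 825 and 610 at 6 h, with a ratio of 0.948 and 1.00 at 1.5 h, 0.353 at 3 h, and 1.03 and 0.628 at 6 h. How the authors placed reads shared by near copies (COX5A and COX5B, CYC1 and CYC7, and the succinate dehydrogenase genes with YJL045W, SHH3 and SHH4) was not stated in any source at hand, and values of such pairs are uncertain to that extent.

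In the library labelled MATa/a, the footprints and the RNA gave different pictures of the members. CYC1 had 1295 RPKM in footprints and 11088 RPKM in mRNA, and CYC7 had 3144 RPKM in footprints and 656 RPKM in mRNA. SDH4 had 3068 RPKM in footprints and 190 RPKM in mRNA. The mRNA values resemble those of growing cells, 5263 RPKM for CYC1 and 387 RPKM for SDH4, and the footprint values those of starved cells. COX5A had 6496 RPKM in footprints and 4624 RPKM in mRNA, and COX5B had 283 RPKM in footprints and 187 RPKM in mRNA. Whether the labels of the 2 assays belong to the same culture was not tested.

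Induction of Ndt80, the transcription factor that starts the meiotic divisions, was seen in every induced library. NDT80 mRNA was 1430 to 5626 RPKM in induced libraries and 45 to 79.8 RPKM in uninduced ones, and that of its target SPS4 was 822 to 197213 RPKM in induced libraries and 58.5 to 536 RPKM in uninduced ones. Over all hours no member passed a test of induced against uninduced cells. In this limma fit the hour was a linear term shared by both arms. It called 0 of the 36 genes, and 0 had an unadjusted p under 0.05. Of all genes tested 0.067% were called, all of them higher, and 613 had an unadjusted p under 0.05, with a median change over all genes of -0.33. For the hour in that fit limma called 0 members and 0% of all genes, and 5 members and 551 of all 5974 genes had an unadjusted p under 0.05.

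The members did differ in how they moved with time. The change per hour was lower with induction for 32 of the 36 genes and higher for none, against 57.3% lower and 7.28% higher of all genes, and the medians were -1.20 for the members and -0.82 for all genes (log2 per hour, induced less uninduced). With each library centred on its median, 10 were lower (ATP5, ATP16, ATP20, QCR2, QCR7, QCR8, QCR10, COX4, SDH3 and SDH4) and COX5B was higher, where 18.1% of all genes were lower and 18.1% higher. Without the induced library of 7.75 h, 12 were lower, and without it and with libraries centred, 1 was (shares of all genes not given for these settings). SPS4 had 197213 RPKM in that library and 536 RPKM in the uninduced one of the same hour, and the part of such abundant genes in the members' lower values was not tested. The members held 1.52% of reads at 5.75 h, 1.94% at 6 h, 1.65% at 6.5 h, 0.852% at 7 h and finally 0.363% at 7.75 h with induction, and 1.72% at 4 h, 1.74% at 5.5 h, 1.67% at 6 h and finally 1.49% at 7.75 h without it. The induced libraries of 7 h and 7.75 h were thus the lowest of the 9.

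ATP5, of the stalk that holds the ATP synthase head in place, had 2366, 2848, 1329, 590 and 155 RPKM at 5.75, 6, 6.5, 7 and 7.75 h with induction. Without induction it had 1895, 1928, 2838 and 1800 RPKM at 4, 5.5, 6 and 7.75 h, and its slopes differed by -2.09 ± 0.27 per hour (limma adjusted p = 0.000533). From 6.5 h on, all induced values lay below all uninduced ones. ATP20, which joins ATP synthase into dimers, had 4550, 4671, 3348, 1396 and 370 RPKM over the same hours with induction and 2689, 2960, 3810 and 3541 RPKM without it (slope difference -1.99 ± 0.27, limma adjusted p = 0.000582). QCR2, a core subunit of the bc1 complex, had 1212, 1844, 932, 386 and 79.4 RPKM with induction and 1692, 1581, 1275 and 1000 RPKM without it (slope difference -1.92 ± 0.31, limma adjusted p = 0.000903). For both genes the induced 7 h and 7.75 h libraries lay under every uninduced one. COR1, the other core subunit of that complex, held up longer, with 1429, 2104, 1888, 1504 and 1049 RPKM with induction and 1782, 2095, 1648 and 1658 RPKM without it (slope difference -0.29, not called).

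**Figure D5:**
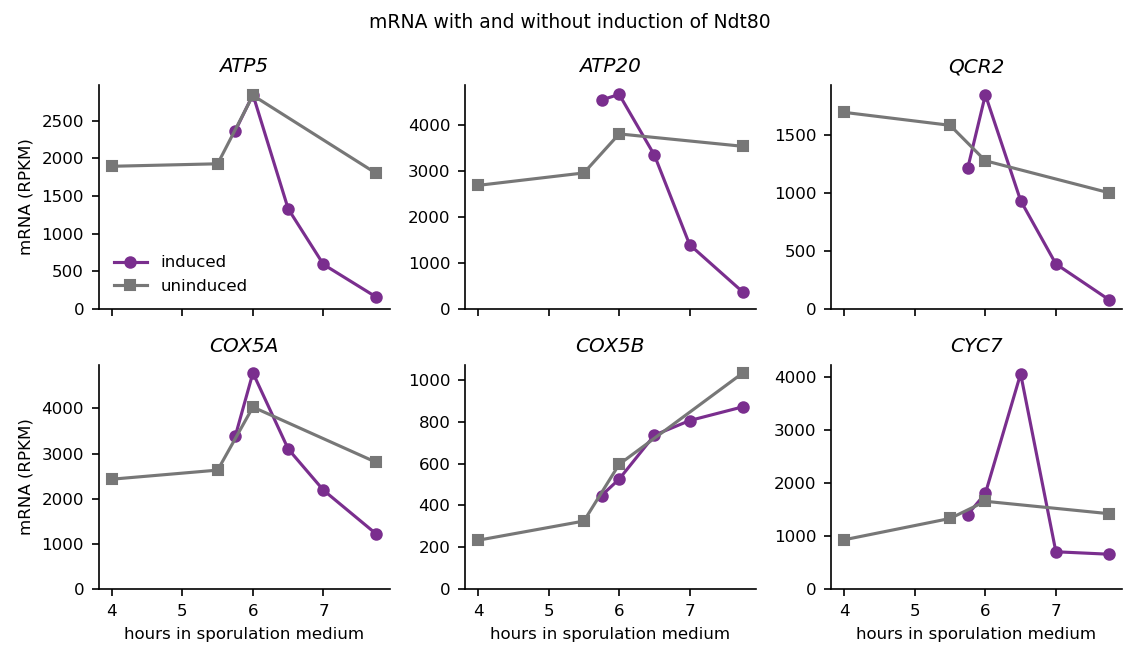
mRNA in RPKM of 6 genes against hours in sporulation medium, for libraries with and without Ndt80 induction, 1 point per library. ATP5, ATP20 and QCR2 reach 155, 370 and 79.4 RPKM at 7.75 h with induction, while COX5B is at 871 RPKM.

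Of the alternative forms, COX5A had 3385, 4785, 3100, 2188 and 1218 RPKM with induction and 2432, 2633, 4028 and 2803 RPKM without it. COX5B had 447, 525, 736, 805 and 871 RPKM with induction and 233, 325, 596 and 1032 RPKM without it. COX5B was thus higher at later hours in either arm, and its slope difference of -0.11 was not called, while centring turned it to 0.60 (limma adjusted p = 0.0303). The log2 ratio of COX5A over COX5B averaged 2.02 ± 1.10 with induction (SD, n = 5) and 2.65 ± 0.84 without it (SD, n = 4), a difference of -0.63 (two-sided exact permutation p = 0.381, adjusted over 2 pairs 0.635).

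CYC1 had 978, 1228, 1499, 546 and 254 RPKM with induction and 1095, 888, 760 and 574 RPKM without it. CYC7 had 1405, 1802, 4055, 703 and 657 RPKM with induction and 930, 1331, 1653 and 1421 RPKM without it. Both were highest in the induced 6.5 h library. The log2 ratio of CYC1 over CYC7 averaged -0.85 ± 0.51 with induction (SD, n = 5) and -0.69 ± 0.69 without it (SD, n = 4), a difference of -0.15 (two-sided exact permutation p = 0.635, adjusted p = 0.635). The smallest p that splits of these 9 libraries allow is 0.0159. Hours differ between the arms, so these ratios also carry the time at which libraries were taken.

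Genes around the members were counted in the same fits, with no test between lists. A list of 19 related genes (other ATP synthase subunits and regulators, external dehydrogenases, ADP/ATP carriers and paralogs of succinate dehydrogenase subunits) had 12 higher and 3 lower footprints at 1.5 h than in growing cells, with a median change of 2.62 (10 higher and 5 lower with libraries centred). AAC1, a minor ADP/ATP carrier, changed by 7.76, NDE2, an external NADH dehydrogenase, by 7.26, and SHH4, a paralog of SDH4, by 6.43. YJL045W, the paralog of SDH1, changed by 5.66, and AAC3, the carrier used without oxygen, by -1.36. In a list of 49 assembly factors, 11 were higher and 25 lower, with a median of -0.81, and with libraries centred 7 were higher and 36 lower. Of all genes 42.1% were higher and 21.2% lower as deposited, and 27.1% higher and 34.3% lower with libraries centred. At 6 h against 3 h, footprints of the assembly factors gave 8 higher and 23 lower, with a median of -0.52, and those of the related genes 2 higher and 10 lower, with a median of -0.74, against 15.6% higher and 40.6% lower of all genes. With libraries centred they were 8 higher and 13 lower and 5 higher and 7 lower, against 19 and 28.5% of all genes. For the slope over hours after Ndt80 induction, 1 of the related genes was higher and 11 lower, and 2 of the assembly factors were higher and 27 lower, against 7.28% higher and 57.3% lower of all genes. With libraries centred these slope counts were 3 higher and 1 lower, and 9 higher and 9 lower, against 18.1% of all genes in each direction.

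Of 10 regulators of respiratory genes, 5 had higher footprints at 1.5 h than in growing cells and none lower, against 42.1% and 21.2% of all genes. With libraries centred 3 were higher and 2 lower, against 27.1 and 34.3% of all genes. At 6 h against 3 h 1 was higher and 6 were lower, with libraries as deposited and centred. Of all genes 15.6% were higher and 40.6% lower as deposited, and 19 and 28.5% with libraries centred. HAP4, the activating subunit of the Hap complex that switches on respiratory genes, was the single regulator whose translation efficiency passed. Its footprints were 133 and 105 RPKM at 6 h and 269 and 297 RPKM at 3 h, while its mRNA was 557 and 476 RPKM at 6 h and 350 RPKM at 3 h. Footprints lay lower and mRNA higher at 6 h with no overlap, and efficiency changed by -1.81 ± 0.28 (limma adjusted p = 0.0251). Of the respiratory genes encoded in mitochondrial DNA, 5 of 7 were tested on entry, and 3 had higher footprints at 0 h than in growing cells: COX1 by 3.01, COX2 by 3.95 and COX3 by 4.81. The same 3 were lower at 1.5 h than at 0 h. These calls rest on 1 library for each of 0 h and growing cells and on low values. COX1 had 20.1 RPKM at 0 h and 1.63 RPKM in growing cells, COX2 28.5 and 0.902 RPKM, and COX3 109 and 2.93 RPKM. The course footprints held COX1 at 1.66 RPKM at 0 h and 1.52 RPKM in growing cells, COX2 at 1.84 and 2.53 RPKM, and COX3 at 27.4 and 4.69 RPKM.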

How the data were processed

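Of 54 samples with ribosome footprints, mRNA or total RNA, 52 libraries entered. CASAVA, bcl2fastq 2.17 and Bowtie2 are listed in the submitters' processing notes. Genome build, annotation, counting tool and strand are not given in the sources at hand, and coordinates are left out. Per the file headers, the authors deposited RPKM in 5 tables. Total RNA is the other unit: 9 of its 10 deposited columns carry the RPKM heading but behave as reads multiplied by length, and they were rescaled and used for shares, isoform ratios and alternatives alone. Per-sample columns not used number 7, among them that of parallel 0 h mRNA, which could not be assigned, and 1 of 2 identical 3 h mRNA columns. For the parallel set, 443 genes are listed in an order that differs from their names in 11 libraries, and position was used for them. QCR10 is the member concerned.

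Genes averaging at least 5 RPKM were tested on log2(RPKM + 1) with limma 3.58.1 (R 4.3.3), a trended eBayes prior and Benjamini-Hochberg adjustment over all genes. The parallel fit held 11 libraries and 5967 genes, the entry fit 13 and 5948, and the induction fits 9 and 5974. On simulated data the parallel fit recovered 100% and the induction fit 83.5% of 200 genes changed by 2 on the log2 scale. Each made 9 false calls. The simulation gave all genes the same spread, a constant shift and no trend over hours. It therefore checks the code and does not measure power in these data. Reads recovered from RPKM, using reference lengths shortened by 60 bases, gave depths, with 75.4 to 90.9% of values up to 100 whole within 0.02. Recovered counts of COX5B, QCR9 and QCR10 were not whole. The length used for these genes may differ from that of the authors, and their reads and part in the shares are approximate. The remaining work used Python 3.11.15, pandas 2.3.3, numpy 2.4.6, matplotlib 3.10.9 and scipy 1.17.1. All 36 members are named. Full values are given for the alternative forms and, per comparison, for up to 3 called rises and falls of the largest size. Related genes, assembly factors, regulators and mitochondrial genes are lists from general knowledge. Members and lists were chosen with earlier results of these data known. Alternatives were another pseudocount, no filter, centring, quantile normalization, a replicate block, other hour terms and leaving out each library.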

Additional observations from a re-analysis of the deposited data

Results flagged for a closer look

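Among the 4 libraries without Ndt80 induction, the 6 h library stood apart for 3 of the 36 genes. ATP5 was at 2838 RPKM there, against 1800 to 1928 RPKM in the others, ATP16 at 2210 RPKM against 1697 to 1733 RPKM, and COX6 at 4724 RPKM against 2895 to 3068 RPKM. Chance marks about 1 in 20 groups, and 72 were examined, of which 3 were marked. The slope over hours differed between induced and uninduced cells for 32 members, all lower with induction. Of all genes 57.3% were lower and 7.28% higher, and fewer members passed with libraries centred.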

How the results depend on the processing

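Counts of called members kept within 1.5 times under the alternatives tried, except as follows. With libraries centred, the counts were 12 for mRNA at 6 h against 3 h, 18 for footprints at 1.5 h against growing cells and 11 for the slope after induction. With quantile normalization they were 5 for mRNA at 3 h against 1.5 h, 0 for footprints at 3 h against 1.5 h, 19 for footprints at 1.5 h against growing cells and 21 for the slope. For that slope count the share of all genes is not given. Centred and without the induced 7.75 h library, an alternative added after seeing the data, the slope called 1. Leaving out 1 library at a time gave 12 to 34 for the slope and 0 to 3 and 1 to 2 for footprints and mRNA at 3 h against 1.5 h. It gave 29 to 33 and 27 to 34 for footprints and mRNA at 6 h against 3 h, and 17 to 19, 16 to 19 and 9 to 11 for footprints at 0 h against growing cells, at 1.5 h against 0 h and at 1.5 h against growing cells. The difference in CYC1 over CYC7 after induction ran between -0.36 and 0.16, reversed to 0.16 without the uninduced 4 h library, and that in COX5A over COX5B between -1.03 and -0.24. As deposited, without centring, medians of succinate dehydrogenase, the bc1 complex, cytochrome oxidase and ATP synthase in course footprints were 1.49, -0.59, 0.42 and 0.61 at 0 h against growing cells, 1.32, 0.98, -0.09 and -0.13 at 1.5 h against 0 h, and -1.52, -1.29, -1.31 and -1.40 at 6 h against 1.5 h. In mRNA at 6 h against 1.5 h they were -1.31, -0.76, -0.60 and -0.74. Relative to the all-gene median, total RNA at 6 h against 1.5 h gave -0.28 for cytochrome oxidase (-0.10 in mRNA) and -0.62 for ATP synthase (-0.23 in mRNA). Log2 ratios in total RNA changed by -3.25 for COX5A over COX5B (8 h against 1.5 h; -3.03 in mRNA) and -3.83 for CYC1 over CYC7 (3 h against 0 h; -3.37 in mRNA). The latter total RNA change is uncertain, as CYC7 had 7 reads at 0 h, the fewest of any member in any library.

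Libraries were not paired by replicate number in the main fits. Deviations of same-numbered libraries correlated between -0.13 and 0.24. Footprints and mRNA of the same hour gave 0.24 at 1.5 h and -0.02 at 6 h. With so few libraries per group, the check cannot tell whether the numbers mark shared cultures. With the replicate block, counts were 17, 17 and 9 on entry, 1 and 32 in footprints and 1 and 31 in mRNA. Shares of all genes are not given for these counts or for those with a library left out. Such counts therefore describe the members alone and cannot be set against the genome. Over single genes 448 alternatives kept the call and 11 lost it. The 0 h footprint library of the parallel set (1.03 in units of 1000000 reads) limits COX5B most.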
